A study of Rattus norvegicus with 6 samples.

Results

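Fragments of 2 mitochondrial tRNAs, the histidine tRNA with anticodon GTG (mt-His-GTG) and the leucine tRNA with anticodon TAG (mt-Leu-TAG), were followed in small RNA libraries of rat muscle. Members were all distinct sequences aligned to the mature or precursor form of either tRNA, with no alignment to a nuclear tRNA or to the mature mt-Ser-GCT tRNA that lies between them. The rule took 5301 of 77567 distinct sequences in the series, 4498 on mt-His-GTG and 803 on mt-Leu-TAG. It uses alignment alone, though it was set with earlier results of these data known. In all, 35464 sequences were on mitochondrial tRNAs.

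There were 3 experimental and 3 control libraries, grouped by their titles alone. All 6 came from frozen muscle of Lewis rats aged 6 to 8 weeks, per the labels. The series title concerns tRNA-derived small RNAs in acute rejection of a composite tissue transplant, but the labels give no graft, donor, treatment or time. They do give a skin phenotype, normal or UV damage, and the design text speaks of mouse skin, so what was done to the experimental animals is not known here. The labels do not tell whether each library is a different animal. The spread behind the p-values is thus between libraries and may be technical. The muscle label could not be checked against marker genes, since the tables hold only tRNA-aligned reads.

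Mitochondrial tRNAs are cut out of long transcripts of the organelle's own genome, at the 5′ end by mitochondrial RNase P and at the 3′ end by ELAC2, after which CCA is added. The histidine, serine (GCT) and leucine (TAG) tRNAs stand side by side in mammalian mitochondrial genomes, between the genes for the NADH dehydrogenase subunits ND4 and ND5. Histidine tRNAs of most organisms carry an extra G before position 1, which histidyl-tRNA synthetase recognises. Cleavage in or near the anticodon loop gives tRNA fragments that are often measured under stress. In bulk tissue, fewer cells of a type and less RNA per cell cannot be told apart.

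The files' own coordinates, whose build the sources used here do not name, put mt-His-GTG at chrM:11538-11605, mt-Ser-GCT at chrM:11606-11665 and mt-Leu-TAG at chrM:11665-11735. All 3 are read from the same strand, which is the one printed here. Positions below count from 1 at the 5′ end of the mature tRNA, -1 is the base before it, and positions past the last encoded base (68 in mt-His-GTG, 71 in mt-Leu-TAG) are the added CCA or, in precursor reads, the sequence beyond the tRNA. The first pair of sequences below is the deposited reference with CCA, in which the anticodon is in capitals. Under it stand the fragments on which the results turn. Capitals mark the anticodon bases, or, where a substitution is named, the substituted base alone.
mt-His-GTG mature: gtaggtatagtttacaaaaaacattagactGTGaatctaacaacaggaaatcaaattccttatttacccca
mt-Leu-TAG mature: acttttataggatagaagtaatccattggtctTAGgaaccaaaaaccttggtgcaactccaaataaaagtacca
mt-His-GTG 17 to 33: aaaaacattagactGTG
mt-His-GTG 17 to 38: aaaaacattagactGTGaatct
mt-His-GTG 26 to 65: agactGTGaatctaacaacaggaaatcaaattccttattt
mt-His-GTG 26 to 54 with A54C: agactgtgaatctaacaacaggaaatcaC
mt-His-GTG -1 to 33 with T-1G: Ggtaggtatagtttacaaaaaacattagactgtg
mt-Leu-TAG 37 to 74: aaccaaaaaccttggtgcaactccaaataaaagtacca
mt-Leu-TAG 12 to 31: atagaagtaatccattggtc

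The members held 16129, 7649 and 29615 reads in the experimental libraries and 2275, 14319 and 4159 reads in the control libraries. The libraries held 876494, 1927269 and 1866227 tRNA-aligned reads in the experimental group and 550004, 740627 and 316990 in the control group, so rare members were measured more closely in the experimental group. Most members were rare. In all, 2881 were seen as 1 read, 4250 carried a mismatch, and 97.5% were typed by the authors as Other, outside their named fragment classes. None aligned to both tRNAs or to more than 1 place on them. Besides, 20 members with 358 reads also aligned to mature mt-Tyr-GTA, and 41 to the mt-Ser-GCT precursor, whose sequence overlaps the flanks of both.

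Summed over all its fragments, neither tRNA passed a test between the groups. The mt-His-GTG fragments took 1.76%, 0.386% and 1.55% of tRNA-aligned reads in the experimental libraries and 0.380%, 1.76% and 1.21% in the control libraries, a full overlap (exact two-sided permutation p = 0.8). In the fit over all 69 anticodon sums, the log2 fold changes were 0.41 ± 0.90 SE for mt-His-GTG (adjusted p = 0.889, limma voom) and -0.91 ± 0.77 SE for mt-Leu-TAG (adjusted p = 0.634, limma voom). The mt-His-GTG value was -0.29 without control replicate 1, which held the fewest such reads. Of the 69 sums, limma voom called 0 (0.0%) and limma trend 2, and an unadjusted p under 0.05 was found for 6.

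As shares of mitochondrial tRNA reads, the 2 tRNAs gave groups that stood apart. The mt-His-GTG fragments took 11.3%, 15.7% and 18.7% of mitochondrial tRNA reads in the experimental libraries and 6.77%, 11.1% and 6.91% in the control libraries. The mt-Leu-TAG fragments took 0.515%, 0.463% and 0.465% in the experimental libraries and 0.599%, 1.08% and 0.565% in the control libraries. The groups did not overlap in either share, although experimental replicate 1 and control replicate 2 nearly met in the first. With 3 against 3 libraries an exact two-sided permutation test can give no p under 0.1, and every comparison of shares or lengths below in which the groups do not overlap has that p (exact permutation p = 0.1, adjusted p = 0.2 for these shares), so none of them passes a threshold of 0.05.

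The reads of both tRNAs were shorter in the experimental libraries. The mean length of mt-His-GTG reads was 22.6, 21.5 and 20.9 nt in the experimental libraries and 30.1, 29.4 and 29.1 nt in the control libraries, a difference of -7.89 nt. That of mt-Leu-TAG reads was 24.5, 25.98 and 23.6 nt in the experimental libraries and 30.2, 32.98 and 29.5 nt in the control libraries, a difference of -6.17 nt. No experimental library reached the lowest control library in either tRNA (exact permutation p = 0.1 each, adjusted p = 0.1). Reads of other mitochondrial tRNAs averaged 21.986 ± 0.354 nt in the experimental and 21.291 ± 0.448 nt in the control libraries (SD, n = 3 each), with overlap. Without mt-Ser-GCT, their mature reads averaged 23.2 ± 0.43 nt in the experimental and 21.8 ± 0.46 nt in the control libraries (SD, n = 3 each), without overlap. Nuclear tRNA reads were longer in the experimental libraries, at 31.6 ± 0.37 nt against 30.8 ± 0.44 nt in the control libraries (SD, n = 3 each). Taken in each library as the difference from other mitochondrial tRNAs, mean length differed by -8.58 nt for mt-His-GTG and -6.86 nt for mt-Leu-TAG (experimental minus control), without overlap between the groups (exact permutation p = 0.1 each, adjusted p = 0.118).

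**Figure D1:**
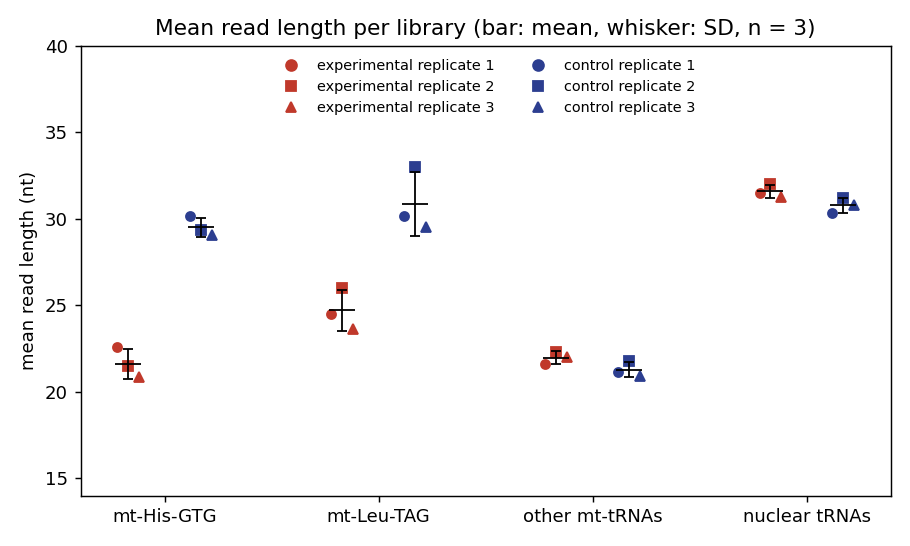
Mean read length (nt) per library for mt-His-GTG, mt-Leu-TAG, other mitochondrial tRNAs and nuclear tRNAs, with experimental libraries left of control libraries, a bar at the mean and whiskers of 1 SD (n = 3). For mt-His-GTG the experimental libraries lie between 20.9 and 22.6 nt and the control libraries between 29.1 and 30.1 nt, while the groups of other mitochondrial tRNAs, mt-Ser-GCT included, lie close together.

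The lengths fell into short and long reads. Reads of 14 to 24 nt made up 78.5% ± 4.1 of mt-His-GTG reads in the experimental and 38.3% ± 3.8 in the control libraries (SD, n = 3 each). Reads of 36 to 40 nt made up 10.5% ± 3.0 in the experimental and 42.98% ± 0.99 in the control libraries. For mt-Leu-TAG the short reads made up 58.1% ± 7.7 in the experimental and 27.4% ± 10.6 in the control libraries, and the long ones 19.2% ± 3.7 in the experimental and 47.02% ± 4.35 in the control libraries (SD, n = 3 each). None of these 4 shares overlapped between the groups. No deposited read was longer than 40 nt, so a read of 40 nt can be the start of a longer RNA, and such reads made up 3.9% ± 0.96 of mt-His-GTG reads in the experimental and 15.0% ± 3.0 in the control libraries. Among reads under 40 nt the mean lengths of mt-His-GTG were 20.9 ± 0.71 nt in the experimental and 27.7 ± 0.76 nt in the control libraries (SD, n = 3 each), still without overlap.

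The ends of mt-His-GTG reads lay at a few sites, and the groups differed in which of them were used. Reads ending at position 33, the last anticodon base, made up 20.7%, 23.4% and 26.8% in the experimental libraries and 9.52%, 10.4% and 8.999% in the control libraries. Reads ending at position 38, in the 3′ side of the anticodon stem, made up 32.97%, 35.4% and 34.4% in the experimental libraries and 9.81%, 14.7% and 17.3% in the control libraries. All experimental libraries were above all control libraries at both sites, and at position 37, with 11.3% ± 0.96 in the experimental and 4.46% ± 0.50 in the control libraries (SD, n = 3 each). At position 65, a few bases before the end of the encoded tRNA, the order was the other way round, with 9.25%, 6.14% and 4.27% in the experimental libraries and 21.4%, 26.05% and 27.1% in the control libraries. Position 64 took 1.32% ± 0.17 in the experimental and 7.31% ± 1.12 in the control libraries, and position 53 took 1.27% ± 0.32 in the experimental and 6.29% ± 2.89 in the control libraries (SD, n = 3 each). Ends at position 45 overlapped between the groups, at 5.385% ± 0.877 in the experimental and 5.387% ± 0.875 in the control libraries. These 7 are among 15 end sites compared in the 2 tRNAs, chosen after the data were seen (exact permutation p = 0.1 and adjusted p = 0.125 where the groups do not overlap).

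**Figure D2:**
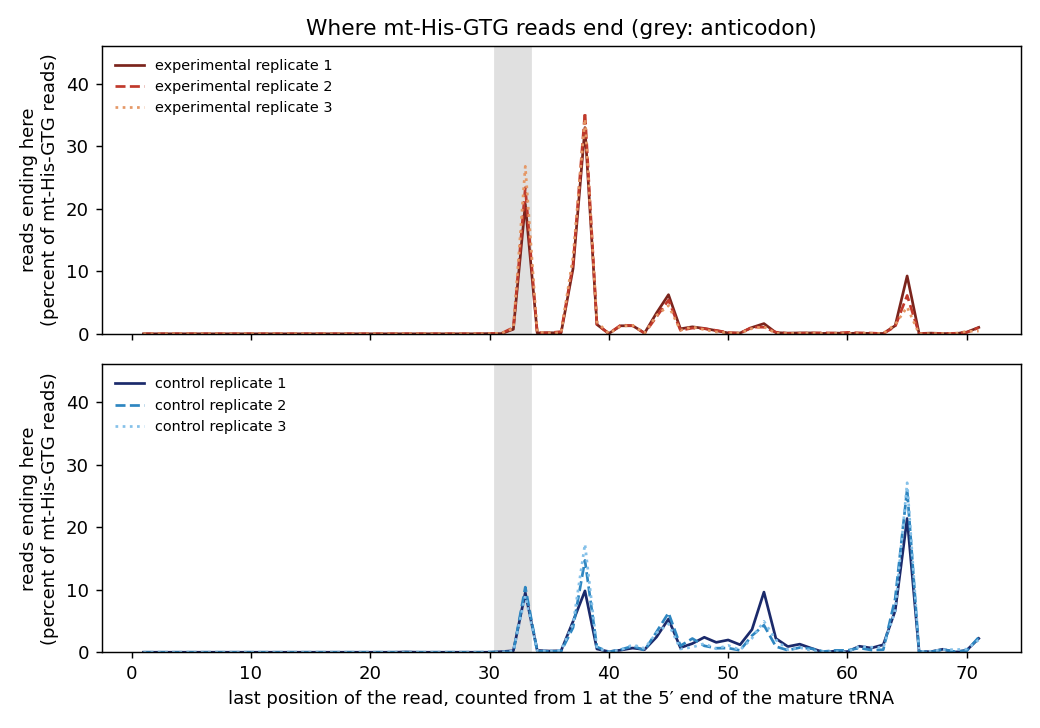
Share of mt-His-GTG reads (percent) by the last position of the read, counted from 1 at the 5′ end of the mature tRNA, with 1 line per library, experimental libraries in the upper panel, control libraries in the lower panel and the anticodon in grey. The experimental libraries peak at positions 33 and 38 and the control libraries at position 65, with smaller peaks of the control libraries at 33, 38 and 53.

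Counted together, ends in the anticodon loop or the 5 bases after it took 73.0% ± 4.8 of mature mt-His-GTG reads in the experimental and 30.5% ± 3.4 in the control libraries (SD, n = 3 each). Ends in the last 8 bases before the CCA took 8.3% ± 2.6 in the experimental and 35.99% ± 3.03 in the control libraries. Among all other mitochondrial tRNAs both differences ran the other way. Ends near the anticodon took 35.5% ± 5.3 in the experimental and 49.98% ± 6.73 in the control libraries, and ends in the last 8 bases took 13.986% ± 1.40 in the experimental and 3.898% ± 0.41 in the control libraries (SD, n = 3 each). Reads of mt-Ser-GCT are numerous in that comparison, and without them ends near the anticodon took 9.68% ± 1.04 in the experimental and 6.82% ± 0.28 in the control libraries. In each library, the mt-His-GTG share of ends near the anticodon minus that of the other mitochondrial tRNAs was 37.6 ± 10.1 percentage points in the experimental and -19.5 ± 5.7 in the control group, or 63.35 ± 5.51 in the experimental and 23.7 ± 3.2 in the control group without mt-Ser-GCT (SD, n = 3 each), without overlap either way (exact permutation p = 0.1, adjusted p = 0.118). Among mt-His-GTG reads under 40 nt, ends near the anticodon took 75.3% ± 4.5 in the experimental and 34.95% ± 4.03 in the control libraries, and ends in the last 8 bases 4.82% ± 1.74 in the experimental and 25.3% ± 3.2 in the control libraries (SD, n = 3 each).

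First positions differed together with the last ones. Starts at position 17 took 21.1% ± 1.7 in the experimental and 11.8% ± 1.1 in the control libraries, and starts at position 20 took 13.2% ± 0.89 in the experimental and 5.30% ± 0.73 in the control libraries (SD, n = 3 each). Starts at position 26 took 6.6% ± 1.1 in the experimental and 19.8% ± 4.4 in the control libraries. Starts at 16, 18 and 25 overlapped between the groups. Reads that both began at 16 to 20 and ended at 33 to 38, from the D arm into the anticodon loop or stem, took 45.7%, 48.3% and 53.1% of mt-His-GTG reads in the experimental libraries and 16.99%, 19.6% and 21.3% in the control libraries. Reads from 26 to 28 up to 64 or 65 took 9.76%, 6.54% and 5.14% in the experimental libraries and 24.5%, 32.04% and 30.9% in the control libraries. Neither pair of groups overlapped. As levels rather than shares they did overlap. The first kind stood at 8039, 1864 and 8227 CPM (reads per 1000000 tRNA-aligned reads) in the experimental and 645, 3447 and 2581 CPM in the control libraries, and the second at 1717, 252 and 796 CPM in the experimental and 933, 5647 and 3748 CPM in the control libraries (exact permutation p = 0.3 and 0.2).

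Nearly all mt-His-GTG reads were internal, with neither end at an end of the tRNA. They took 97.3% ± 0.76 in the experimental and 94.0% ± 0.35 in the control libraries (SD, n = 3 each). Fragments of the 3′ end, which stop at the last encoded base or in the CCA, took 1.19% ± 0.25 in the experimental and 3.16% ± 0.14 in the control libraries. Reads that begin before the tRNA took 0.86% ± 0.48 in the experimental and 2.37% ± 0.32 in the control libraries, and 5′ fragments took 0.556% ± 0.098 in the experimental and 0.182% ± 0.103 in the control libraries (SD, n = 3 each). The groups did not overlap in these classes (exact permutation p = 0.1, adjusted p = 0.143 over 10 classes of the 2 tRNAs). Near the start of the tRNA, nearly all control reads but few experimental reads carried the same substitution, given below with the mismatches. A control read with it and another difference was not counted. The control shares of 5′ fragments, and of reads from before the tRNA that reach this base, may thus be too low. How much of the 5′ fragment difference comes from this was not tested. The 3′ fragments began at position 52.3 ± 0.14 on average in the experimental and at 46.0 ± 0.72 in the control libraries (SD, n = 3 each). Of these fragments, 66.1% ± 15.5 in the experimental and 69.4% ± 8.3 in the control libraries ended at the last position of the CCA, whatever base was read there, with overlap. The most abundant of them, 54 to 71, had 57, 27 and 52 reads in the experimental and 14, 79 and 17 reads in the control libraries (log2 fold change -0.60, limma voom adjusted p = 0.661). Reads across the 3′ end into the sequence beyond it took 0.0908%, 0.0808% and 0.0415% in the experimental and 0.526%, 0.107% and 0.130% in the control libraries, without overlap (exact permutation p = 0.1, adjusted p = 0.143), from 32 reads in the experimental and 30 in the control group.

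Single members were tested in a fit over all 2226 fragments that passed a filter on low counts. The filter asked for a minimum level in at least 3 libraries, so a fragment high in only 1 group could pass through that group. Passing was thus not independent of the difference tested. Of the 5301 members, 120 passed the filter (115 of mt-His-GTG and 5 of mt-Leu-TAG), and they held 71.5% of member reads. Of these 120, limma voom called 13 higher and 13 lower in the experimental libraries at an adjusted p under 0.05, where 18.7% of all fragments tested were called higher and 7.64% lower. The groups did not overlap for 36.7% of the members tested and for 40.7% of all fragments tested. The median log2 fold change of the members tested was 0.92, that of all fragments tested 0.21. Of the 787 mitochondrial fragments tested, members included, 59 were called higher and 135 lower, with a median of -0.54. The calls rest on a spread pooled over all fragments, since with each fragment's own spread limma voom called 0 members higher and 0 lower (0.674% and 0.359% of all fragments, 1.03% in either direction, and 26.3% in either direction with the pooled spread). They also rest on single libraries. The members called higher were 1 without experimental replicate 1, 34 without experimental replicate 2, 2 without experimental replicate 3, 26 without control replicate 2 and 2 without control replicate 3. Those called lower were 8 without experimental replicate 2, 7 without experimental replicate 3, 31 without control replicate 1 and 6 without control replicate 2.

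The mt-His-GTG calls are given here by where the fragment ended, beside the 18.7% of all fragments tested that were called higher, the 7.64% called lower and their median log2 fold change of 0.21. Of all 2226 fragments tested, 1199 had a log2 fold change above 0. Of the 787 mitochondrial ones, 313 were above 0, 59 were called higher and 135 lower. Of 53 tested fragments ending at 29 to 40, 12 were called higher and 0 lower, with a median log2 fold change of 1.79, and 51 of the 53 were above 0. The share called higher among them was close to that of all fragments tested. Of the 12 called higher, 6 carried a mismatch at their last base. The same spans without a mismatch, which were more abundant, were not called (limma voom adjusted p = 0.0819 to 0.264). Of 45 ending at 41 to 60, 1 was called higher and 4 lower. Of 17 ending at 61 to 71, 0 were called higher and 7 lower, with a median log2 fold change of -1.69, and 0 of the 17 were above 0. Of the 7, fragments 32 to 64, 32 to 65, 26 to 63 and 29 to 64 passed the filter through the control libraries alone. Of the 12, fragments 21 to 37, 17 to 38 with T38A and 20 to 38 with T38A passed it through the experimental libraries alone. Their calls do not stand apart from that selection. The counts in this paragraph describe the fragments that passed the filter and share their reads with the end sites above, so they are not separate evidence. Many of these fragments share most of their sequence with one another.

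The most abundant members ended at 33 or 38, or at 65. Fragment 17 to 33 had 1112, 254 and 1285 CPM in the experimental and 74.5, 525 and 287 CPM in the control libraries. Experimental replicate 2 was below 2 of the control libraries, and the log2 fold change of 1.92 ± 0.88 (SE) did not pass (limma voom adjusted p = 0.0911). Fragment 17 to 38, which adds 5 bases of the anticodon loop and stem, had 884, 174 and 736 CPM in the experimental and 52.7, 375 and 278 CPM in the control libraries (log2 fold change 1.70, limma voom adjusted p = 0.141). Fragment 20 to 38 had 975, 189 and 823 CPM in the experimental and 47.3, 317 and 278 CPM in the control libraries (log2 fold change 1.97, limma voom adjusted p = 0.0819). In all 3, experimental replicate 2 was lowest in its group and control replicate 1 lowest in the other. Fragment 26 to 65, the most abundant member over all libraries, had 567, 93.4 and 270 CPM in the experimental and 344, 2390 and 1016 CPM in the control libraries, and its log2 fold change of -1.69 ± 0.88 (SE) did not pass (limma voom adjusted p = 0.141). It is 40 nt long, so the RNA behind it may reach further 3′. Fragments 24 to 37, 13 to 33 and 17 to 45 had log2 fold changes of 2.03, 0.88 and 1.55 (limma voom adjusted p = 0.0776, 0.488 and 0.2), and 24 to 37 passed without control replicate 2.

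Fragments 20 to 33, 20 to 37 and 25 to 38 were among those called higher. Fragment 20 to 37 had 187, 48.8 and 221 CPM in the experimental and 5.45, 47.3 and 18.9 CPM in the control libraries, and rose by 2.99 ± 0.94 (SE) on the log2 scale (adjusted p = 0.00911, limma voom). The groups nearly met, in experimental replicate 2 and control replicate 2. Without experimental replicate 3, control replicate 1 or control replicate 3 it was not called, at log2 fold changes of 2.79, 2.33 and 2.54. Fragment 25 to 38 had 224, 75.8 and 302 CPM in the experimental and 12.7, 67.5 and 47.3 CPM in the control libraries, and rose by 2.52 on the log2 scale (adjusted p = 0.0248, limma voom). It was called only without experimental replicate 2 or control replicate 2 when 1 library was left out. Fragment 20 to 33 rose by 2.22 (limma voom adjusted p = 0.0493), with overlap between the groups, and was still called without experimental replicate 2 alone. Also called higher by the naming rule were 26 to 41 (2.68), 19 to 38 with T38C (2.84) and 17 to 33 with G33A (2.37). The groups overlapped for 26 to 41 and for 17 to 33 with G33A. Each of these 3 lost its call without experimental replicate 1 or 3 or control replicate 1 or 3, and 17 to 33 with G33A also without control replicate 2.

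**Figure D3:**
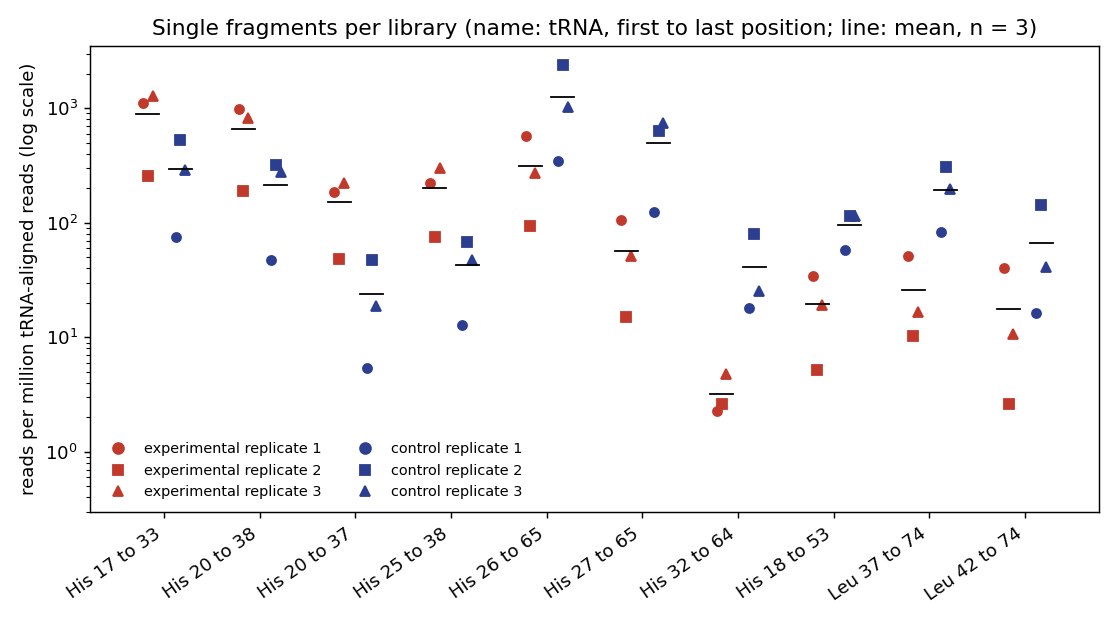
CPM on a log scale for 10 single fragments, named by tRNA and first to last position, with experimental libraries left of control libraries and a line at the mean (n = 3). Experimental replicate 2 lies below the other experimental libraries in 9 of the 10 fragments, and control replicate 1 is the lowest control library throughout.

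Fragments ending further 3′ were among those called lower. Fragment 27 to 65 had 105, 15.05 and 51.4 CPM in the experimental and 124, 633 and 748 CPM in the control libraries, without overlap, and fell by 2.89 ± 0.88 (SE) on the log2 scale (adjusted p = 0.00716, limma voom). Without experimental replicate 2 or control replicate 2 it was not called, at -2.40 and -2.55. Fragment 32 to 64, which begins inside the anticodon, had 2.28, 2.59 and 4.82 CPM in the experimental and 18.2, 79.7 and 25.2 CPM in the control libraries, and fell by 3.08 on the log2 scale (adjusted p = 0.0124, limma voom). It lost its call without experimental replicate 1 or 3 or control replicate 2. Fragment 18 to 53 had 34.2, 5.19 and 19.3 CPM in the experimental and 58.2, 115 and 114 CPM in the control libraries, and fell by 2.30 (limma voom adjusted p = 0.0454). It was called without experimental replicate 1 or control replicate 1 and with no other library left out. Fragment 16 to 50 had 3, 0 and 3 reads in the experimental and 7, 11 and 4 reads in the control libraries (fell by 3.27, limma voom adjusted p = 0.0114). Fragments 32 to 64 and 16 to 50 passed the low-count filter through the control libraries alone, so their p-values do not stand apart from that selection.

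Fragment 26 to 54 with A54C, the largest fall among the members, had 0 reads in all experimental libraries and 10, 31 and 37 reads in the control libraries. It passed the low-count filter through the control libraries alone, so its p-value does not stand apart from that selection. Set against 3 counts in the whole experimental group, it was at least 75.5-fold lower by pooled CPM, or at least 49.5-fold without control replicate 3 (limma voom adjusted p = 2.92e-09, and 0.0527 with its own spread). The substitution is at the last base of the read. The same span without it had 1 read in the experimental and 3 in the control group, and 26 to 53, the span 1 base shorter, had 3, 1 and 6 reads in the experimental and 4, 13 and 2 reads in the control libraries. These neighbours were chosen after their values were seen.

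Summing mismatched and matched reads of the same span left the counts unlike those of single sequences. Of 127 spans tested, 7 were called higher and 15 lower by limma voom, where 19.1% and 7.66% of all features in that fit were called higher and lower. With each span's own spread 0 were higher and 1 lower (0.672% and 0.403% of all features). Span 20 to 37 stood at 2.68 (limma voom adjusted p = 0.0171), 25 to 38 at 2.80 (0.0115) and 27 to 65 at -2.73 (0.0116) on the log2 scale. Spans 19 to 38 and 26 to 41 did not pass (limma voom adjusted p = 0.105 and 0.095). As single sequences, 26 to 41 and 19 to 38 with T38C or T38A had been called. Fragment 19 to 38 without a mismatch had not (limma voom adjusted p = 0.148).

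Mismatches showed that the groups differ in the sequence read near the 5′ end of mt-His-GTG. At position 5, 11 of 185, 6 of 58 and 18 of 227 reads carried G5A in the experimental libraries, and 13 of 13, 88 of 89 and 11 of 11 reads carried it in the control libraries. The mismatch share there was 8.1% ± 2.2 in the experimental and 99.6% ± 0.65 in the control libraries (SD, n = 3 each), without overlap (exact permutation p = 0.1, adjusted p = 0.537 over 204 positions). Without the outer 2 bases of each read it was 5.39%, 8.16% and 6.54% in the experimental and 100%, 98.6% and 100% in the control libraries. All 6 libraries carry the same strain label, and why the base differs was not tested. Group and the base read at position 5 go together here. The length, end-site and level contrasts of mt-His-GTG therefore cannot be told apart from this difference in sequence. The deposited table keeps no read with over 1 difference from the reference, so a control read over position 5 could hold no second difference and still be counted. Fragment 1 to 38, the most abundant 5′ fragment, had 39, 10 and 55 reads in the experimental and 0, 0 and 0 reads in the control libraries as the reference sequence, but its span with mismatches included stood at a log2 fold change of 2.17 and did not pass (limma voom adjusted p = 0.0841).

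**Figure D4:**
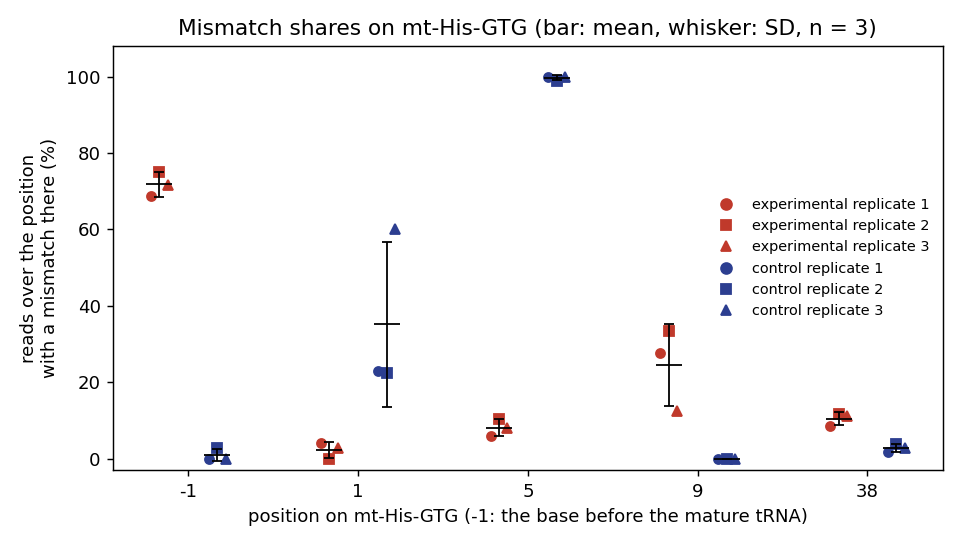
Share of reads over a position that carry a mismatch there (percent) at 5 positions of mt-His-GTG, with experimental libraries left of control libraries, a bar at the mean and whiskers of 1 SD (n = 3). Position 5 is at 98.9% or above in every control library and at 10.3% or below in every experimental library, while positions -1 and 9 are high in the experimental libraries alone. Reads with G5A, nearly all control reads over position 5, could not also show a mismatch at -1 or 9 and be counted.

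A G in place of the encoded T before position 1 was read in most experimental reads over that base. The base before the tRNA in the reference is T, and T-1G was read in 45 of 67, 8 of 12 and 57 of 81 reads over position -1 in the experimental libraries, against 0 of 12, 2 of 69 and 0 of 17 reads in the control libraries. The 2 control reads have it at their last base, and 0 of the experimental reads do. Fragment -1 to 33 with T-1G had 30, 3 and 20 reads in the experimental and 0, 0 and 0 reads in the control libraries. Set against 3 counts in the whole control group, that is 6.08-fold by pooled CPM, or 3.25-fold without experimental replicate 1. These folds are not lower limits, since a control read with G5A could not also carry T-1G and be counted. This comparison is limited by position 5. Of 143 experimental reads that cover both positions, 110 carried T-1G, 16 carried G5A, 3 carried another substitution at -1 and 14 matched at both, and of 44 control reads 0 carried T-1G and 43 carried G5A. A read with both would have 2 differences and would not be in the table, so the level of a G at -1 in the control libraries cannot be told from these reads.

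Position 9, a base that is methylated in many mitochondrial tRNAs, also carried mismatches in the experimental libraries alone. The share was 27.6%, 33.3% and 12.6% of 221, 72 and 262 reads in the experimental libraries, and 0% of 19, 118 and 25 reads in the control libraries. Without the outer 2 bases of each read it was 25.8%, 28.1% and 8.02% in the experimental and 0% in each of the control libraries. The substitutions were A9T in 73 reads, A9G in 44 and A9C in 1, and 0 of them were at a last base of the read. Here reads that begin after position 5 can be compared without the limit above, though position 9 then lies at or near their first base. Of these, 17 of 36, 10 of 14 and 22 of 37 reads carried a mismatch at position 9 in the experimental libraries, and 0 of 6, 0 of 29 and 0 of 14 in the control libraries. A count of 0 among 49 control reads allows a share of up to 6.12%, which covers counting error only. From position 11 to position 65, no library had a mismatch share above 1.69% at any position once the outer 2 bases of each read were left out.

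Other mismatches lay at read ends. At position 38, the most used end in the experimental libraries, 8.45%, 11.8% and 11.3% of reads carried a mismatch in the experimental and 1.87%, 3.8% and 2.71% in the control libraries, without overlap. T38C was the most frequent, with 1760 of 1801 experimental and 159 of 184 control reads having it at the last base. T38G was read in 551 experimental and 247 control reads, and 242 of the control reads came from control replicate 2. Without the outer 2 bases of each read, the share at position 38 was 0.215% to 0.432% in the experimental and 0.25% to 0.418% in the control libraries. The shares before that trimming are of all reads over position 38, so they depend on how many reads end there. Such ends took 34.3% ± 1.2 of mt-His-GTG reads in the experimental and 13.9% ± 3.8 in the control libraries (SD, n = 3 each). G1A, in reads that end at position 1 and so come from the sequence before the tRNA, was read in 6, 0 and 5 reads in the experimental and 3, 21 and 12 reads in the control libraries, all at the last base. C-10T and other substitutions at position -10 were read in 15.7% ± 1.1 of experimental and 8.2% ± 2.8 of control reads there (SD, n = 3 each), also at read ends. In the CCA, mismatch shares at positions 70 and 71 overlapped between the groups.

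The mt-Leu-TAG fragments were far rarer than those of mt-His-GTG, with 704, 219 and 720 reads in the experimental and 185, 1266 and 314 reads in the control libraries. Fragments of the 3′ end took 32.5%, 37.4% and 27.2% of mt-Leu-TAG reads in the experimental libraries and 64.9%, 76.9% and 57.6% in the control libraries. Internal fragments took 59.9%, 58.9% and 65.1% in the experimental and 29.2%, 15.4% and 36.3% in the control libraries. The groups did not overlap in either class (exact permutation p = 0.1, adjusted p = 0.143). Reads wholly beyond the 3′ end, in the trailer of the precursor, took 5.3% ± 1.8 in the experimental and 6.18% ± 0.61 in the control libraries (SD, n = 3 each), with overlap. The 5′ fragments numbered 15 reads in the experimental and 10 in the control group, too few to compare.

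**Figure D5:**
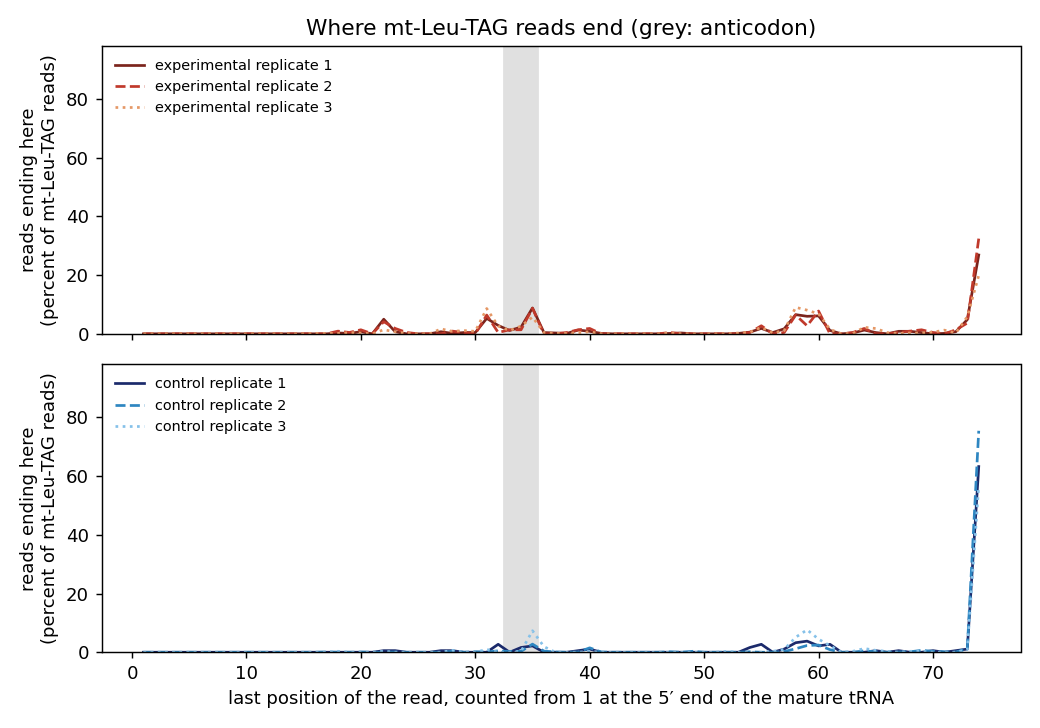
Share of mt-Leu-TAG reads (percent) by the last position of the read, counted from 1 at the 5′ end of the mature tRNA, with 1 line per library, experimental libraries in the upper panel, control libraries in the lower panel and the anticodon in grey. The peak at position 74, the last base of the CCA, lies between 19.9% and 32.4% in the experimental and between 56.7% and 75.4% in the control libraries, and smaller peaks lie near positions 22, 31, 35 and 58 to 60.

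The 3′ end itself differed as well as its share. Reads ending at position 74, the last base of the CCA, took 26.8%, 32.4% and 19.9% in the experimental and 63.2%, 75.4% and 56.7% in the control libraries. Reads ending 1 base short, at 73, took 4.8% ± 1.1 in the experimental and 1.07% ± 0.11 in the control libraries (SD, n = 3 each). Among 3′ fragments, 82.5%, 86.6% and 73.0% of reads in the experimental and 97.5%, 98.2% and 98.3% in the control libraries ended at position 74, without overlap (exact permutation p = 0.1, adjusted p = 0.2). These shares count any base read there, so some of these ends were not read as CCA. Taken in each library as the difference from all other mitochondrial tRNAs, ends in the CCA differed by -34.4 percentage points, experimental minus control, without overlap (exact permutation p = 0.1, adjusted p = 0.118). Without mt-Ser-GCT, ends in the CCA were also lower among the other mitochondrial tRNAs, at 43.9% ± 2.8 in the experimental and 65.1% ± 6.0 in the control libraries (SD, n = 3 each), without overlap. The mt-Leu-TAG difference was then -15.98 percentage points, and the groups nearly met, at -2.007 in experimental replicate 2 and -1.980 in control replicate 1. At position 73, in the CCA, 7.17%, 2.53% and 10.8% of reads carried a mismatch in the experimental and 0%, 0.722% and 1.66% in the control libraries, without overlap (exact permutation p = 0.1, adjusted p = 0.537 over 204 positions). C73T was the most frequent there, with 21 of 29 experimental and 2 of 3 control reads having it at the last base. The mismatch share at 73 depends on how many reads end there, and such ends were more frequent in the experimental libraries, as given above. Mismatch shares at position 74 overlapped between the groups, at 5.29%, 4.23% and 9.79% in the experimental and 3.42%, 12.9% and 1.12% in the control libraries. At that base, A74G was read in 14 experimental and 118 control reads, and 116 of the control reads came from control replicate 2.

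Starts of these 3′ fragments lay just after the anticodon. Starts at position 37 took 10.3% ± 2.2 in the experimental and 25.2% ± 1.2 in the control libraries, and starts at 38 took 4.7% ± 1.1 in the experimental and 15.9% ± 4.9 in the control libraries (SD, n = 3 each), both without overlap. Starts at 39 to 42 overlapped between the groups. Fragment 37 to 74, which runs from the last base of the anticodon loop to the end of the CCA and is the most abundant mt-Leu-TAG member, had 51.3, 10.4 and 16.6 CPM in the experimental and 83.6, 305 and 196 CPM in the control libraries. It fell by 2.77 ± 0.90 (SE) on the log2 scale (adjusted p = 0.0115, limma voom), without overlap, and was not called without experimental replicate 2 or 3 or control replicate 2 (-2.55, -2.42 and -2.36). Fragment 42 to 74 had 39.9, 2.59 and 10.7 CPM in the experimental and 16.4, 144 and 41.01 CPM in the control libraries and did not pass (log2 fold change -1.89, limma voom adjusted p = 0.119), though it passed without control replicate 1. Of the 5 mt-Leu-TAG members tested, 2 were called lower and 0 higher, where 7.64% of all fragments tested were called lower and 18.7% higher, and 5 are too few to set against those shares.

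Internal mt-Leu-TAG fragments ended near the anticodon or in the T arm. Reads ending at 31 to 35 took 20.3%, 18.3% and 20.7% in the experimental and 6.49%, 3.87% and 8.599% in the control libraries, without overlap, and ends at 31 alone took 6.8% ± 1.7 in the experimental and 0.35% ± 0.53 in the control libraries (SD, n = 3 each). As levels, reads ending at 31 to 35 overlapped, at 163, 20.8 and 79.8 CPM in the experimental and 21.8, 66.2 and 85.2 CPM in the control libraries. Fragment 12 to 31 had 10, 6 and 15 reads in the experimental and 0, 0 and 1 reads in the control libraries, which was too few to be tested. Fragments 41 to 59, 14 to 35 and 45 to 59 averaged 7.90 ± 5.94, 3.73 ± 4.02 and 3.17 ± 3.29 CPM in the experimental and 13.4 ± 10.5, 8.27 ± 6.56 and 4.51 ± 2.37 CPM in the control libraries (SD, n = 3 each), with overlap, and were not tested either. G36A, just after the anticodon, was read in 4 of 38, 0 of 11 and 6 of 38 reads in the experimental and 1 of 5, 9 of 46 and 7 of 14 reads in the control libraries, few of them inside the read. In the trailer, the most abundant fragment, which starts at the first base beyond the tRNA, had 3, 1 and 1 reads in the experimental and 0, 10 and 2 reads in the control libraries.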

How the data were processed

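Per the labels, RNA of muscle was made into libraries with a NEBNext small RNA kit and sequenced on an Illumina NextSeq. Per the file headers, the authors collapsed reads to distinct sequences, aligned them to mature tRNAs with CCA and to precursor tRNAs with at most 1 mismatch, and deposited raw counts per sequence and library; aligner and build are not given in the sources used here, and the submitters' processing notes name mm9, a mouse build. Deposited counts equalled the numbers in the read names in all 141197 sequence-by-library values. Each sequence was counted once. The series table was read as other than a clean count column because 1812 text lines stand among its rows, so limma 3.58.1 voom (R 4.3.3) took the place of a quasi-likelihood count test.

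A sequence was tested if at least 3 libraries had the CPM equal to 10 counts at median depth and its counts summed to 15 or more. Trimmed mean of M values factors scaled the fits, p-values were adjusted by Benjamini-Hochberg over all features, and the threshold was 0.05. CPM printed are unscaled. The fragment fit had an infinite prior degrees of freedom, so each fragment's own spread was an alternative. The voom script was tested on simulated data. Shares and lengths were compared with exact two-sided permutation tests over libraries (SciPy 1.17.1). Same-numbered libraries of the groups did not deviate together (r = -0.31, -0.06 and 0.14), so the numbers were not taken as pairs.

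Named fragments were the 8 most abundant of each tRNA, the most abundant of each position class and up to 10 called in each direction, with those whose ends lie within 2 nt and that share mismatch status named once. Positions with a mismatch share of 10% or more in a library with at least 30 reads were named. Members, lists and rules were chosen with earlier results of these data known. End sites, spans, length classes and the comparison with other mitochondrial tRNAs were added after the data were seen. Limits set from a count of 0 reflect counting error alone, as PCR copies do not count as independent molecules.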

Additional observations from a re-analysis of the deposited data

How the results depend on the processing

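Of 871 recomputed values, 31 turned round, 67 of the named fragments' values lost their call, 5 gained one, and 28 counts moved by over 1.5 times. The members called higher (13) were 0 with library totals, 89 with no filter on low counts, 0 with own spread, 5 with exact matches only and 1 to 34 with 1 library left out. Those called lower (13) were 148 with no filter, 0 with own spread and 6 to 31 with 1 library left out. Spans called higher (7) were 0 with library totals, 34 with no filter, 0 with own spread and 1 to 15 with 1 library left out, and those called lower (15) were 55, 1 and 5 to 35 with no filter, own spread and 1 library left out. With the replicate block, a fit on numbers that pair no samples, 9 members were called higher and 11 lower, 5 spans higher and 13 lower.

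Values that turned round were mostly ones whose groups overlap. The mt-His-GTG sum (log2 fold change 0.41) was -0.012 with library totals and lay between -0.29 and 1.16 with 1 library left out. As differences of means in percentage points, with 1 library left out, the mt-His-GTG share of tRNA-aligned reads lay between -0.256 and 0.536, its share of 3′ fragments ending at the last position of the CCA between -8.04 and 5.66, and its mismatch share at position 71 between -2.22 and 4.45. The mt-Leu-TAG trailer share lay between -1.53 and 0.139, and its mismatch share at 74 between -1.71 and 4.16 and at precursor position 100 between -5.36 and 0. The mt-His-GTG share of ends in the CCA minus that of other mitochondrial tRNAs lay between -1.10 and 5.18. Starts of mt-His-GTG reads at 16 lay between -0.50 and 1.02 and at 18 between -1.17 and 0.744, and its ends at 45 between -0.437 and 0.454. Starts of mt-Leu-TAG reads lay between -0.415 and 0.822 at 40, between -1.35 and 1.597 at 41 and between -0.403 and 2.88 at 42, and its reads ending at 31 to 35 between -7.42 and 63.8 CPM. Without the outer 2 bases of each read, mismatch differences were 0 at mt-His-GTG 1, -0.029 at mt-His-GTG 38 and 1.28 at mt-Leu-TAG 36, where the mismatches lie at read ends. For the other values the cause was not tested. Sequences shared with the mature mt-Ser-GCT numbered 0, so that alternative gave no other value. The depth limits mt-Leu-TAG and the 5′ end of mt-His-GTG most, where control libraries held as few as 11 reads over position 5.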
